A study of Homo sapiens with 9 samples.

Results

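NNAT and 9 other genes at imprinted places of the human genome were followed through 9 RNA-seq libraries of differentiated Caco-2 cells. Caco-2 is an established line from a colon carcinoma whose cells take on features of the small intestinal enterocyte when they are kept confluent. NNAT was chosen by its lower level with both food colorants in these same libraries. The others are BLCAP, the gene that NNAT lies inside, and H19, IGF2, PEG10, MEST, PEG3, SNRPN, CDKN1C and PHLDA2, taken as a list of well-known imprinted genes. All 10 were found among the 28395 genes of each count file by NCBI Gene ID, and 6 of them (NNAT, BLCAP, IGF2, PEG10, MEST and CDKN1C) had enough counts to enter the model fit. The cells, labelled wild type, spent 24 h in regular culture medium (control, libraries A, B and C), in medium with 10 µM carmine (libraries A, B and C) or in medium with 20 µM carminic acid (libraries A, B and C). Carminic acid is the red anthraquinone glucoside of the cochineal insect, and carmine is its aluminium-containing complex. The concentrations of the colorants differ, so their values stand side by side and carmine was not contrasted with carminic acid. Both comparisons use the same 3 control libraries. Nothing in the labels says that samples of a group came from different cultures. A p-value here therefore speaks of the spread among these samples alone, and that spread may be technical.

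An imprinted gene is read mainly or only from the copy inherited from the mother or from the father. The silent copy is usually marked by DNA methylation of a control region, set in the egg or sperm and kept through later cell divisions by zinc finger proteins such as ZFP57 and by the maintenance methyltransferase DNMT1. NNAT, IGF2, PEG10, MEST, PEG3 and SNRPN are paternally expressed, and H19, CDKN1C and PHLDA2 maternally. NNAT encodes neuronatin, a small membrane protein of the endoplasmic reticulum known from the developing brain and endocrine cells, where it acts on calcium pumps of the SERCA family. Counts per gene do not tell the parental copies apart, so nothing below speaks of imprinting itself.

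NNAT sits on the plus strand of chromosome 20 at 37521250 to 37523690, within BLCAP, which runs on the minus strand from 37517417 to 37527876 (RefSeq, GRCh38.p14). NNAT starts 6626 bases from the start site of BLCAP. In GENCODE 29 transcripts, 85 bases at 37521319 to 37521403 were exonic in both genes on opposite strands, which is 6.38% of the 1332 exonic bases of NNAT and involves 3 BLCAP exons. Since no source used here gives the strand setting of the counting, reads within those bases cannot be told apart. The other exonic bases of NNAT also lie within the span of BLCAP. Reads of unspliced BLCAP RNA there could be counted as NNAT, and their share was not measured. BLCAP had 13420 to 15765 counts per library and NNAT 78 to 251.

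The promoter table from RefSeq (GRCh38.p14) held 4 of the 10 genes. Stretches upstream of start sites, from 250 to 61 bases before the start and free of GENCODE 29 exons, are shown for BLCAP, MEST and SNRPN. BLCAP was taken because its start feeds the transcript around NNAT, and MEST and SNRPN because they lie far apart in counts. Each of the 3 has several annotated starts, of which 1 is shown; for BLCAP it is the 1 whose stretch is free of exons. Capitals mark CpG sites, the places that imprint methylation uses. The BLCAP stretch lies at chr20:37527937-37528126 on the minus strand, that of MEST at chr7:130491835-130492024 on the plus strand and that of SNRPN at chr15:24954737-24954926 on the plus strand.
BLCAP: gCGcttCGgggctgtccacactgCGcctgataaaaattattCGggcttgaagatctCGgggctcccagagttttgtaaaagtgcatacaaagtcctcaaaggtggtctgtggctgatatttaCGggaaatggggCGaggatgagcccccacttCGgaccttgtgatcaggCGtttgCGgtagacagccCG
MEST: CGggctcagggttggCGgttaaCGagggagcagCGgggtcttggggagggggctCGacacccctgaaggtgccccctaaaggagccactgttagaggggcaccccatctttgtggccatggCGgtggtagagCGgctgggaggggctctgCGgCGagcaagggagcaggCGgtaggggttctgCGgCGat
SNRPN: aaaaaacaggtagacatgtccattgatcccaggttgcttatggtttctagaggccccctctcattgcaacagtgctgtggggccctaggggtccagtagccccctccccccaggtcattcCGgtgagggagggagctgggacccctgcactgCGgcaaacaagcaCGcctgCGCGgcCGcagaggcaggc
BLCAP has 11 CpG sites in its 190 bases, MEST 12 and SNRPN 6. Over 34943 such stretches of all genes the median was 7 CpG sites, with quartiles of 2 and 16, and 40.7% had at least as many as BLCAP, 38.0% as many as MEST and 54.6% as many as SNRPN. The hexamer TGCCGC, which ZFP57 is known to bind when methylated, was searched on both strands. Of the stretches shown it occurs in that of SNRPN. Over all annotated starts, exonic stretches included, it occurs in 2 of 3 stretches of BLCAP, 1 of 5 of MEST and 2 of 4 of SNRPN, so the choice of start decides whether a gene shows it, and in 9.47% of all stretches.

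MEST and H19 also carry microRNAs within their spans, MIR335 in MEST and MIR675 in H19. Their mature forms are shown because MEST was among the well counted hosts and H19 close to silent. Capitals mark the seed, bases 2 to 8.
hsa-miR-335-5p: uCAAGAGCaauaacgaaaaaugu
hsa-miR-335-3p: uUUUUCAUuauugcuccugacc
hsa-miR-675-5p: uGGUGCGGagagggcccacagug
hsa-miR-675-3p: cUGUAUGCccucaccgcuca
The 4 seeds all differ. MIR335 and MIR675 had 0 counts in all 9 libraries as genes of the count files, which do not list the mature forms.

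The 9 libraries held between 54871018 and 57581301 counts each. Carmine C stood apart on the first principal component of the log2 CPM (counts scaled to library size), which carried 20.9% of the variance, at 34.5 against −19.4 to 14.5 for the other 8. With edgeR's quasi-likelihood test on 16017 genes, 0 genes passed a Benjamini-Hochberg adjusted p of 0.05 in either comparison (0% and 0%). At an unadjusted p under 0.05, 1760 genes (11%; 5.61% lower and 5.38% higher) were counted with carmine and 1030 (6.43%; 3.91% lower and 2.52% higher) with carminic acid. DESeq2 called 81 genes with carmine and 6 with carminic acid, and limma-voom 0 in each. Enterocyte markers were read in all libraries, with summed levels of 4320.3 to 4399 CPM in control, 4357 to 4437 CPM with carmine and 4485 to 4709 CPM with carminic acid. Villin (VIL1) alone stood at 1199.8 ± 27.2 CPM and sucrase-isomaltase (SI) at 292 ± 6.66 CPM in control (SD, n = 3), and 1 of the 10 enterocyte markers, KRT20, was at 0 counts in every library. Of the 9 in the fit, 6 had a positive log2 fold change with carmine (median 0.01) and 9 with carminic acid (median 0.12). With carminic acid 2 of the 9, VIL1 and LCT, lay above control without overlap, as did 12% of all tested genes. Their log2 fold changes were 0.12 and 0.36 (edgeR adjusted p = 0.717 for each).

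NNAT lay lower in every colorant library than in every control library. Its counts were 251, 221 and 194 in control libraries A, B and C, 127, 94 and 78 with carmine, and 127, 136 and 114 with carminic acid. Scaled for library size, these were 4.50, 3.90 and 3.40 CPM in control, 2.18, 1.67 and 1.42 CPM with carmine, and 2.22, 2.43 and 2.06 CPM with carminic acid. The 3 control libraries were the highest of the 9, and the ranges of carmine and carminic acid overlapped, since carmine A was above carminic acid C. The means were 3.93 ± 0.550 CPM in control, 1.76 ± 0.387 CPM with carmine and 2.24 ± 0.183 CPM with carminic acid (SD, n = 3), so that carmine libraries held 44.7% and carminic acid libraries 56.9% of the control level.

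**Figure D1:**
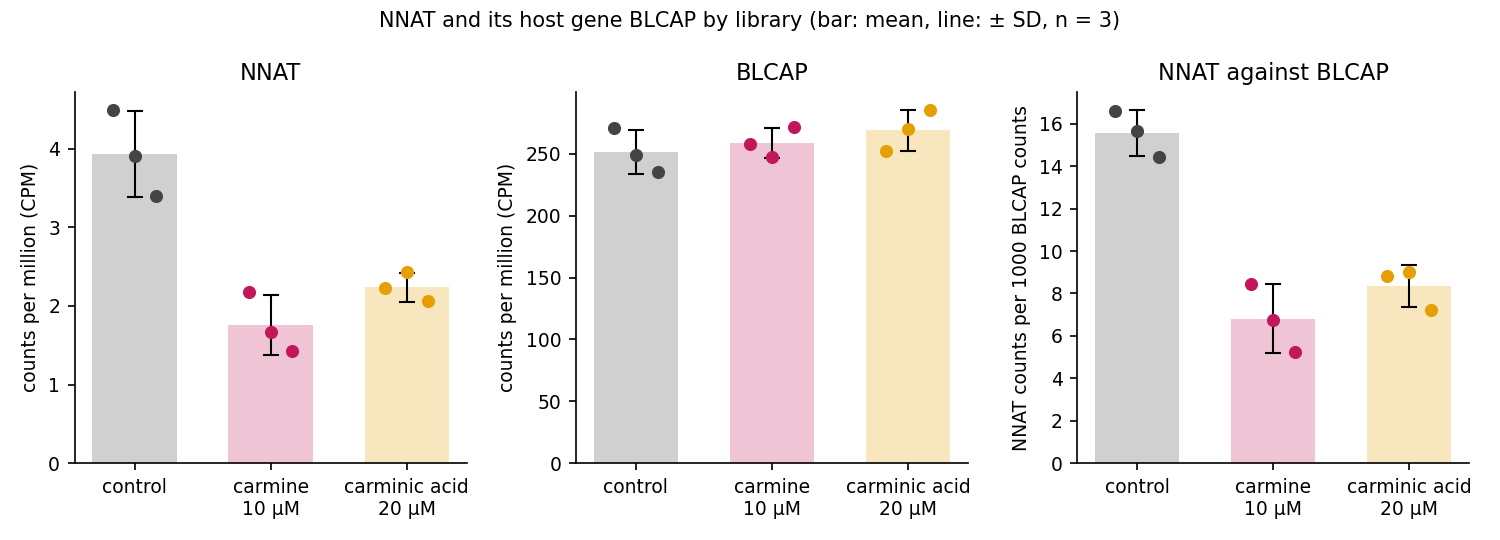
Levels of NNAT and BLCAP in CPM and NNAT counts per 1000 BLCAP counts, by group. Points are libraries, bars the mean and lines ± SD (n = 3); NNAT lies below control in all 6 colorant libraries, from 1.42 to 2.43 CPM against 3.40 to 4.50 CPM, while the BLCAP groups overlap.

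On the log2 scale the fitted NNAT difference was −1.16 (SE 0.184) with carmine and −0.81 (SE 0.181) with carminic acid. Because NNAT was selected on these very differences, they are a description and carry no test. Among 13238 genes whose average log2 CPM was 0 or more, 25 had a lower log2 fold change with carmine and 24 with carminic acid, against a median over all tested genes of 0.01 and −0.01. Without carmine C the carmine value was −1.02. Leaving out each library in turn gave −1.34 to −1.02 for carmine and −0.91 to −0.71 for carminic acid.

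The depth behind NNAT was modest. A count of 78, the lowest, has an exact 95% Poisson interval of 61.7 to 97.3, and the highest, 251, one of 221 to 284. These intervals cover counting error only. The highest colorant count, 136 in carminic acid B, reached up to 161 and the lowest control count, 194, down to 168. The counting intervals of control and colorant libraries thus did not meet. NNAT was chosen for its lower level in these libraries, so this describes the depth and is no test. NNAT RNA is short and rich in G and C: its longest transcript is at the 8.43 percentile of length and the 77.8 percentile of GC content among tested genes. Removing each library's trend with length and GC content gave −1.24 and −0.89. A lower level in such bulk RNA cannot tell fewer cells that read NNAT from less NNAT RNA per cell.

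BLCAP, a small membrane-associated protein first described for its loss in bladder cancer, did not share the lower level of the gene inside it. It stood at 271, 249 and 235 CPM in control, 258, 248 and 271 CPM with carmine, and 252, 269.6 and 285 CPM with carminic acid. The groups overlapped in both comparisons. The log2 fold change was 0.04 (95% interval −0.12 to 0.20, edgeR adjusted p = 0.850) with carmine and 0.10 (−0.06 to 0.26, adjusted p = 0.740) with carminic acid. The ratio of the pair does not depend on library scaling: 16.6, 15.7 and 14.5 NNAT counts per 1000 BLCAP counts in control, 8.46, 6.76 and 5.23 with carmine, and 8.82, 9.01 and 7.23 with carminic acid. The mean ratio was 15.6 ± 1.08 in control, 6.82 ± 1.61 with carmine and 8.35 ± 0.976 with carminic acid (SD, n = 3), again without overlap of control and colorant libraries. Since the ratio contains the chosen gene, it is given without a test.

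The genes around the pair on chromosome 20 were read as a check of the wider stretch. At lower coordinates the nearest tested genes were SRC (111 kb away), MANBAL (200.2 kb) and RPN2 (276 kb), and at higher coordinates CTNNBL1 (166 kb), VSTM2L (375 kb) and TTI1 (455 kb). With carmine their log2 fold changes lay between −0.05 for TTI1 and 0.39 for VSTM2L (edgeR adjusted p = 0.378). With carminic acid all 6 were between 0.05 for TTI1 and 0.22 for VSTM2L (adjusted p = 0.717). VSTM2L, a protein of the immunoglobulin superfamily, was the gene of the 6 farthest from 0, at 5.29 ± 0.359 CPM in control, 6.92 ± 0.791 CPM with carmine and 6.15 ± 0.616 CPM with carminic acid (SD, n = 3). None of the 6 passed the threshold, and none had NNAT's direction by more than 0.05 on the log2 scale. RPN2 lay above control without overlap in both comparisons, and VSTM2L with carmine. Over all tested genes 7.32% did so with carmine and 12% with carminic acid.

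IGF2 and H19 share a domain on chromosome 11 and are read from opposite parental copies. IGF2, the fetal growth factor, was well counted: 18.8, 15.2 and 16.01 CPM in control, 16.96, 11.7 and 12.3 CPM with carmine, and 17.3, 15.9 and 17.6 CPM with carminic acid. Carmine B and C were the lowest of all 9 libraries, and carmine A lay within the control range. The log2 fold change was −0.29 (95% interval −0.57 to −0.01, edgeR adjusted p = 0.450) with carmine and 0.02 (−0.26 to 0.30, adjusted p = 0.966) with carminic acid. Leaving out each library in turn gave −0.48 (without carmine A) to −0.19 (without carmine B) with carmine. The overlapping readthrough gene INS-IGF2 had 0 counts in all libraries. Reads that fall in both genes cannot be assigned, since their treatment in the counting is not given, so that 0 and the IGF2 level hold only for reads given to 1 of them. IGF2-AS, the antisense transcript, stood at 0.665 ± 0.179 CPM in control.

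H19, a long noncoding RNA that is abundant in fetal tissue, was close to silent. Its counts were 8, 0 and 6 in control, 4, 0 and 0 with carmine, and 6, 2 and 2 with carminic acid, 28 in all. A count of 0 here allows up to 3 counts, which is 0.0515 to 0.0547 CPM depending on the library. At this depth no difference between groups was detectable for H19. Its span overlaps MRPL23 in the annotation, so some of these counts may be reads of that gene.

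CDKN1C and PHLDA2 lie in the neighbouring imprinted domain, with PHLDA2 934 kb from H19 as measured over the outer ends of both genes. CDKN1C, the cell cycle inhibitor p57, had 13, 12 and 22 counts in control, 17, 133 and 30 with carmine, and 12, 23 and 26 with carminic acid. Carmine B held most of the carmine counts, carmine A lay within the control range and carmine C above it. The fitted log2 fold change of 1.94 with carmine (95% interval 0.43 to 3.45, edgeR adjusted p = 0.391) rested on that library and was 0.59 without it. With carminic acid it was 0.39 (−1.24 to 2.02, adjusted p = 0.885). PHLDA2, which restrains placental growth, had 0 counts in all 9 libraries.

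PEG10 had the highest level of the 10 per kilobase of transcript. It encodes a protein derived from a retrotransposon and is needed in the placenta. Its level was 609, 648 and 697 CPM in control, 689.9, 559.9 and 435 CPM with carmine, and 675, 531 and 555 CPM with carminic acid. The colorant libraries ranged more widely than the control libraries and overlapped with them. The log2 fold change was −0.21 (95% interval −0.52 to 0.10, edgeR adjusted p = 0.571) with carmine. It was −0.06 without carmine C, the lowest library, and −0.39 without carmine A. With carminic acid it was −0.15 (−0.46 to 0.16, adjusted p = 0.777), and −0.27 without carminic acid A and −0.08 without carminic acid B. SGCE, the paternally expressed gene that starts beside PEG10, stood at 57.9 ± 0.783 CPM in control, 55.8 ± 2.07 CPM with carmine and 55.3 ± 3.001 CPM with carminic acid (SD, n = 3), with log2 fold changes of −0.05 and −0.07 (adjusted p = 0.793 and 0.797). SGCE was named after its values were seen.

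MEST, an enzyme of the alpha/beta hydrolase fold, varied little between libraries. It stood at 133, 142 and 141 CPM in control, 153, 150.4 and 137 CPM with carmine, and 133, 127 and 134 CPM with carminic acid. The log2 fold change was 0.08 (95% interval −0.06 to 0.23, edgeR adjusted p = 0.655) with carmine and −0.08 (−0.23 to 0.06, adjusted p = 0.749) with carminic acid, and the groups overlapped. These intervals leave out a difference of the size seen for NNAT. The span of MEST meets those of MESTIT1 and COPG2, whose reads cannot be told apart where exons overlap.

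PEG3 and SNRPN were near the floor. PEG3, a zinc finger protein, had 2, 0 and 0 counts in control, 1, 4 and 0 with carmine, and 0, 2 and 0 with carminic acid. SNRPN, a splicing protein of neurons from the Prader-Willi region, had 5, 9 and 2 counts in control, 11, 11 and 3 with carmine, and 6, 7 and 2 with carminic acid. No difference was detectable for either at this depth. SNRPN shares a transcript with SNURF, which had at most 1 count in any library. How the counting treated reads that fall in 2 genes is not given, so reads of their shared exons may be missing from both, and the counts of SNRPN and SNURF do not by themselves show a low level. Among noncoding genes further along the same region, IPW had 837 to 1273 counts and PWAR5 128 to 326 counts per library, both named after their values were seen.

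**Figure D2:**
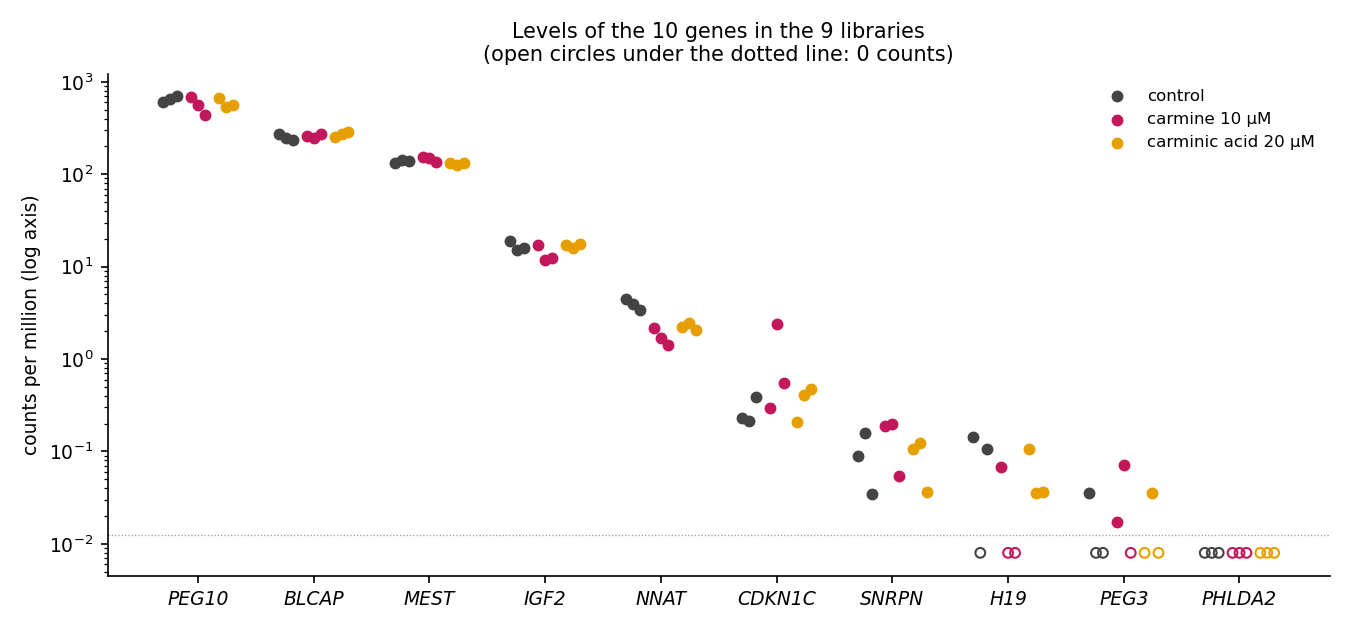
Levels of the 10 genes in CPM on a log axis for the 9 libraries, sorted by CPM, which is not set per transcript length. Each point is a library and open circles stand for 0 counts; PEG10, BLCAP and MEST lie above 100 CPM in every library, and PHLDA2 is at 0 in all 9.

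Levels of different genes are compared here per kilobase of the longest GENCODE transcript, since CPM grows with transcript length. In control libraries the order was PEG10 at 98.4 ± 6.65 CPM per kb, BLCAP at 61.6 ± 4.39, MEST at 55.4 ± 1.85, NNAT at 3.03 ± 0.424, IGF2 at 2.98 ± 0.338 and CDKN1C at 0.143 ± 0.0489 (SD, n = 3). SNRPN followed at 0.0487 ± 0.0320 and H19 at 0.0353 ± 0.0316, then PEG3 at 0.00136 ± 0.00236. The place of SNRPN holds only for the reads that the counting gave to it. NNAT and IGF2 differed by less than their spread in control, as did SNRPN and H19. With carmine NNAT stood at 1.36 ± 0.298 CPM per kb and IGF2 at 2.44 ± 0.520, and with carminic acid at 1.73 ± 0.141 and 3.03 ± 0.162. NNAT stood beside IGF2 in control and below it in both colorant groups. Since NNAT was chosen by its lower level with both colorants, this change of place is a description and no test.

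**Figure D3:**
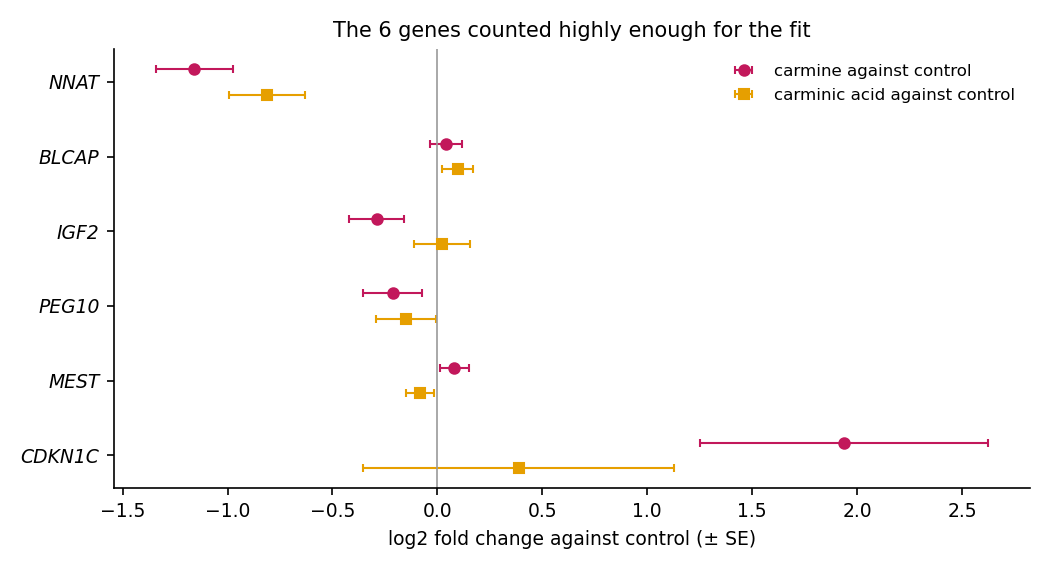
Fitted log2 fold change against control of the 6 genes in the model fit, for carmine (circles) and carminic acid (squares), with ± SE as lines. NNAT lies at −1.16 and −0.81, BLCAP, IGF2, PEG10 and MEST lie between −0.29 and 0.10, and CDKN1C has the widest errors.

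Of the 6 fitted genes, 3 had a negative and 3 a positive log2 fold change in each comparison, where 48.3% of all tested genes were negative with carmine and 51.9% with carminic acid. The median of the 6 was −0.09 and −0.03. NNAT was the 1 gene whose groups did not overlap, in both comparisons and through the choice. Over all tested genes, groups did not overlap for 15% with carmine (7.67% lower and 7.32% higher) and for 20.8% with carminic acid (8.82% lower and 12% higher).

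Of 25 other genes listed as paternally expressed, 24 were in the files and 10 had enough counts. With carmine 7 of the 10 were negative and 3 positive (median −0.18), and with carminic acid 9 were negative and 1 positive (median −0.06). None passed the threshold in either comparison or under any of 19 alternative settings. Without carmine C the carmine median was −0.06, with 6 negative. MKRN3, a ubiquitin ligase that restrains puberty, had the smallest p of those lower with carmine, at 8.56 ± 0.932 CPM in control and 6.97 ± 0.729 CPM with carmine (log2 fold change −0.30, edgeR adjusted p = 0.425), and stood at 8.46 ± 0.692 CPM with carminic acid. ZDBF2, a zinc finger protein, stood at 31.6 ± 2.16, 27.3 ± 5.59 and 27.1 ± 2.42 CPM in control, carmine and carminic acid (−0.21 and −0.22, adjusted p = 0.521 and 0.717). MCTS2, a retrocopy of MCTS1, stood at 0.950 ± 0.0650 CPM in control, 0.825 ± 0.0993 CPM with carmine and 0.570 ± 0.0235 CPM with carminic acid (−0.73 in the last, adjusted p = 0.717), and its carminic acid libraries lay below all control libraries. MCTS1 itself had 2114 to 2693 counts per library, against 31 to 57 for MCTS2, so reads of the near copy make MCTS2 uncertain. PLAGL1, a zinc finger regulator of growth, lay lower without overlap with carminic acid too, on 6 to 10 counts per library against 10 to 20 in control (−0.85, adjusted p = 0.717). With carminic acid 2 of the 10 lay lower without overlap, and 8.82% of all tested genes did. IGF2-AS (0.17, adjusted p = 0.830) and ZNF331 (0.04, adjusted p = 0.882) had the smallest p of those higher with carmine, and GNAS-AS1 was the 1 gene higher with carminic acid (0.15, adjusted p = 0.940). DLK1, ZIM2, USP29, NDN, MAGEL2 and NPAP1 had 0 counts in all libraries.

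Of 12 other genes listed as maternally expressed, 9 had enough counts, with 5 negative and 4 positive in each comparison and medians of −0.003 and −0.04. Whether Caco-2 cells read them from the maternal copy was not measured. None passed the threshold. PPP1R9A, a neuronal actin-binding protein, had the smallest p with carmine, at 36.9 ± 2.96 CPM in control and 31.8 ± 5.24 CPM with it (a log2 difference of −0.21, edgeR adjusted p = 0.497). NAA60, a Golgi acetyltransferase, had the smallest p with carminic acid, at 84.1 ± 3.98 and 93.8 ± 5.63 CPM (0.16, adjusted p = 0.717). With carminic acid NAA60 was the 1 of the 9 to lie above control without overlap, and 12% of all tested genes did. GRB10, an adaptor that dampens insulin signalling, stood at 30.5 ± 1.63, 28.2 ± 2.36 and 29.6 ± 1.63 CPM. GNAS, the stimulatory G protein subunit, stood at 1117 ± 22.5, 1173 ± 70.6 and 1197 ± 55.6 CPM (0.07 and 0.10, adjusted p = 0.708 and 0.729). ZNF597 (0.52 with carmine, adjusted p = 0.684) rested on 7 to 27 counts per library in these groups, and RB1, the retinoblastoma protein, was at −0.13 with carminic acid (adjusted p = 0.754).

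**Figure D4:**
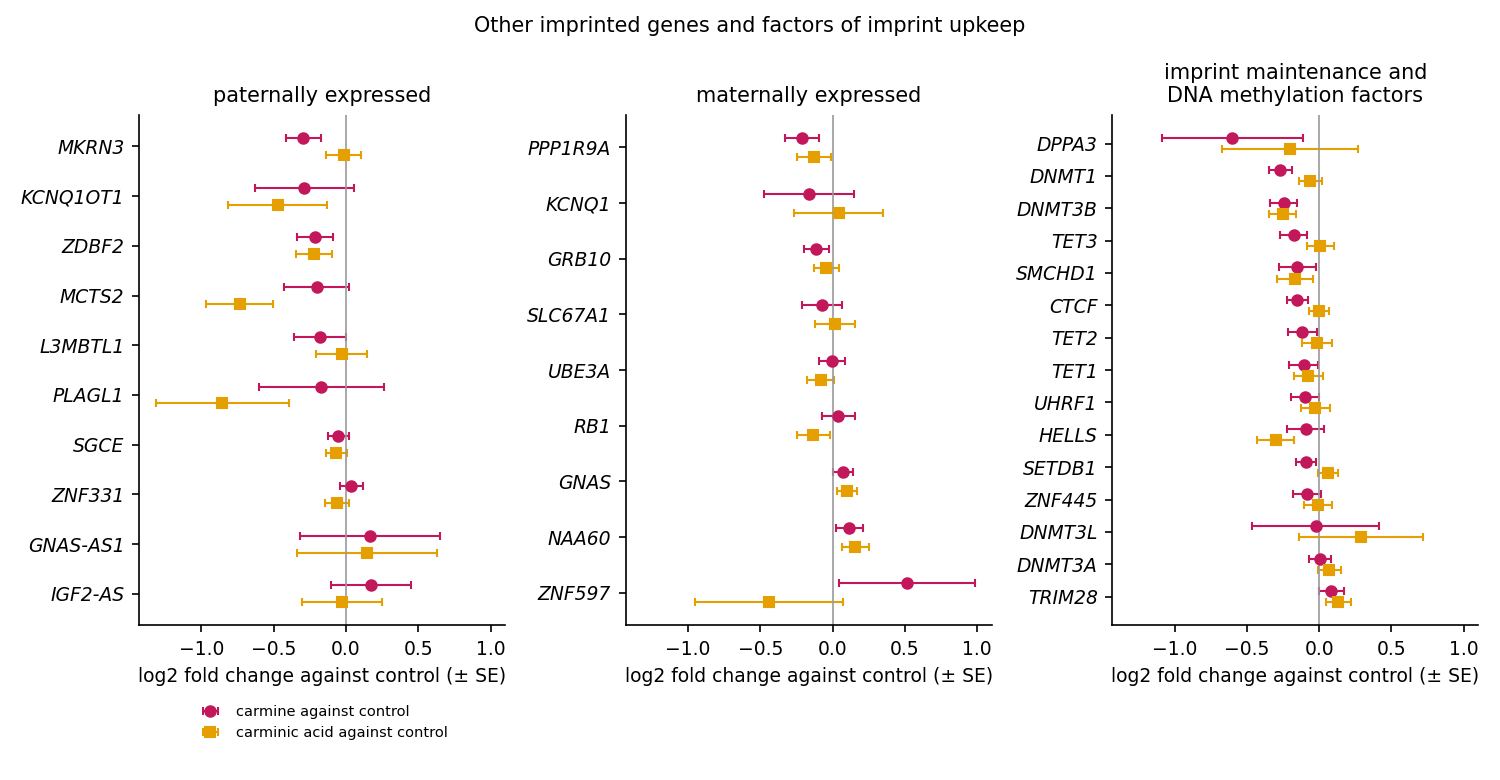
Fitted log2 fold change against control (± SE) of the tested genes of 3 lists, for carmine (circles) and carminic acid (squares), sorted by the carmine value. No gene shown passed the threshold. Of the 15 factors of imprint upkeep, 13 lie below 0 with carmine and 10 with carminic acid. Of all tested genes 48.3% and 51.9% do so.

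DNA methyltransferases and the factors that guide them are known to keep the silent copy of imprinted genes marked. Of 20, 15 had enough counts. Of all tested genes 48.3% were negative with carmine and 51.9% with carminic acid. Of the 15, 13 were negative with carmine (median −0.11) and 10 with carminic acid (median −0.01). None passed the threshold under any of the settings, and without carmine C 11 were negative with carmine, with a median of −0.05. With carmine 4 of the 15 lay below control without overlap, as did 7.67% of all tested genes: DNMT1, DNMT3B, CTCF and SETDB1. With carminic acid 1 lay below and 1 above control without overlap, against 8.82% and 12% of all tested genes. DNMT1 stood at 60.7 ± 1.28 CPM in control, 50.5 ± 2.64 CPM with carmine and 58.2 ± 4.16 CPM with carminic acid (log2 fold changes −0.27 and −0.06, edgeR adjusted p = 0.332 and 0.819). DNMT3B, a methyltransferase that sets new marks, lay below control without overlap with both, at 23.1 ± 1.61, 19.5 ± 1.00 and 19.4 ± 1.82 CPM (−0.24 and −0.25, adjusted p = 0.400 and 0.717). DNMT3A, its relative, had log2 fold changes of 0.01 and 0.07. TRIM28, the corepressor that ZFP57 recruits, was at 0.08 and 0.13, and HELLS, a chromatin remodeller, at −0.30 with carminic acid (adjusted p = 0.717). CTCF, the insulator protein of the IGF2 and H19 domain, stood at 73.2 ± 3.92, 66.0 ± 2.59 and 73.2 ± 2.23 CPM (−0.15 and −0.001, adjusted p = 0.454 and 0.994). ZFP57, NLRP7 and KHDC3L had 0 counts in all libraries.

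SERCA pumps and their small regulators were listed as the partners of neuronatin. Of 9 genes, 6 had enough counts, with 2 negative and 4 positive in each comparison and medians of 0.13 and 0.05. None passed the threshold. ATP2A2, the widely used pump, stood at 304 ± 9.95, 288 ± 18.1 and 300.1 ± 1.88 CPM in control, carmine and carminic acid (log2 fold changes −0.08 and −0.02, edgeR adjusted p = 0.670 and 0.949), and ATP2A3 at 36.2 ± 2.17, 39.7 ± 4.92 and 40.4 ± 2.99 CPM (0.13 and 0.16). ATP2A1, the muscle pump, was at 1.21 ± 0.218, 1.07 ± 0.151 and 0.689 ± 0.410 CPM (−0.18 and −0.80, adjusted p = 0.851 and 0.717). ERLN, a regulator of the pumps, lay above control without overlap with both colorants, at 4.25 ± 0.312, 5.87 ± 0.321 and 5.22 ± 0.972 CPM (0.47 and 0.29, adjusted p = 0.358 and 0.717). ARLN, another, did so with carmine, at 346 ± 11.5 and 377 ± 10.5 CPM (0.12, adjusted p = 0.512). Over all tested genes 7.32% with carmine and 12% with carminic acid lay above control without overlap. The muscle regulator PLN had 0 counts in all libraries.

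The receptors, binding proteins and RNA-binding partners of IGF2 were listed beside it, and 13 of 15 had enough counts. With carmine 9 were negative and 4 positive (median −0.02), with carminic acid 4 and 9 (median 0.03), and none passed the threshold. Without carmine C the carmine split was 5 negative and 8 positive. IGF2R, which clears IGF2 and is itself imprinted in the mouse, stood at 638 ± 76.0, 629 ± 44.0 and 729 ± 50.3 CPM (log2 fold changes −0.02 and 0.19, edgeR adjusted p = 0.949 and 0.717). IGF1R, the signalling receptor, stood at 72.3 ± 2.56, 67.9 ± 6.47 and 73.6 ± 4.28 CPM (−0.09 and 0.03). IGFBP2 stood at 62.1 ± 5.60, 78.8 ± 22.5 and 78.6 ± 8.20 CPM (0.34 and 0.34, adjusted p = 0.470 and 0.717), and its carminic acid libraries lay above control without overlap. With carminic acid 2 of the 13 did so, and 12% of all tested genes. IGFBP4 was at 0.15 and 0.16, IGFBP1 at −0.18 and −0.30, and IGF2BP3, an RNA-binding protein of fetal and tumour cells, at −0.07 and −0.13.

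Endocrine and nerve cells are known to read NNAT, and their markers and those of stromal and goblet cells were measured beside it. Of 12 enteroendocrine and neuroendocrine markers, NEUROD1 and INSM1 were at 0 and CHGA had 1 count in all libraries together, and the summed level was 43.0 to 46.4 CPM in control, 48.1 to 50.0 CPM with carmine and 45.5 to 50.8 CPM with carminic acid, most of it SCGN at 37.5 ± 1.55 CPM in control. Of the 4 with enough counts, 3 were negative with carmine (median −0.16) and 2 with carminic acid (median 0.002). SCGN, a calcium-binding protein, lay above control without overlap with carmine (0.16, edgeR adjusted p = 0.460) and was at 0.10 with carminic acid, and CHGB, a granule protein, was at −0.20 and 0.09. TPH1, the serotonin-forming enzyme of enterochromaffin cells, lay below control without overlap with both colorants, at 0.330 ± 0.130, 0.142 ± 0.0377 and 0.148 ± 0.0247 CPM (log2 fold changes −1.21 and −1.14, edgeR adjusted p = 0.391 and 0.717), on 6 to 27 counts per library. Over all tested genes 7.67% with carmine and 8.82% with carminic acid lay below control without overlap, and 7.32% with carmine lay above it. The 6 neuron markers, with SNAP25 at 0, summed to 8.62 to 8.82, 7.09 to 9.27 and 7.80 to 8.89 CPM. The 10 stromal markers, with THY1 at 0, summed to 133 to 168, 115 to 139 and 119.8 to 154 CPM, and of the 5 with enough counts all were negative with carmine (median −0.22) and 4 with carminic acid (median −0.12). LUM, a matrix proteoglycan, lay below control without overlap with both (−0.64 and −0.76, adjusted p = 0.393 and 0.717). The 5 goblet cell markers, with ATOH1 at 0, summed to 19.9 to 27.3, 25.4 to 37.1 and 24.7 to 26.3 CPM. The 2 with enough counts, TFF3 and FCGBP, were positive in both comparisons (medians 0.30 and 0.20). TFF3 was at 0.41 and 0.01 (edgeR adjusted p = 0.436 and 0.984), and FCGBP at 0.20 and 0.38 (adjusted p = 0.558 and 0.717). FCGBP lay above control without overlap with carminic acid, as did 12% of all tested genes. All libraries are of the 1 line Caco-2, so these are levels of marker genes in it and no measure of nerve, stromal or other cells. Their tie to the NNAT level was not tested.

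The genes most like NNAT across the 9 libraries were sought among 13237 others by Pearson's r of log2 CPM, as a description, since all share the libraries and their depth. They were DMTF1 (r = 0.981), PCP2 (0.978), SEC31B (0.974), LTB4R (0.967) and CCNL2 (0.965). These r values include the group difference by which NNAT was chosen. The highest of 13237 values over 9 libraries are also high through that selection, with or without the group means. DMTF1, a transcription factor of the ARF pathway, stood at 28.9 ± 0.783, 20.8 ± 2.61 and 22.6 ± 0.817 CPM in control, carmine and carminic acid, and CCNL2, a cyclin tied to splicing, at 113 ± 9.62, 80.9 ± 7.75 and 89.8 ± 5.52 CPM (SD, n = 3). SEC31B, of vesicle coats, stood at 10.96 ± 1.28, 6.92 ± 1.07 and 7.53 ± 0.674 CPM. Their log2 fold changes, −0.48, −0.49 and −0.66 with carmine for DMTF1, CCNL2 and SEC31B, were smaller than NNAT's. After the group means were subtracted, so that only differences within groups counted, the nearest were ZNF841 (0.983), EXOG (0.976), TSC1 (0.975), TRMT13 (0.959) and CCDC39 (0.959), and the lists shared 0 genes. Of the other fitted genes, IGF2 had r = 0.62 with NNAT, PEG10 0.59, MEST −0.17, BLCAP −0.25 and CDKN1C −0.61. With the group means subtracted these were 0.71 for IGF2, 0.50 for PEG10 and −0.41 for CDKN1C, while MEST at 0.24 and BLCAP at 0.12 changed sign.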

How the data were processed

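Total RNA of differentiated Caco-2 cells was sequenced, 3 samples per group, per the labels' protocols. The authors deposited 1 file per library, which holds unnormalized read counts by NCBI Gene ID. The aligner was HISAT2, per the file headers. The submitters' processing notes name FastQC, HISAT, featureCounts and hg38 and give no versions. Strand setting, annotation release and handling of reads with several places were not given in the sources used here.

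The fit was made with edgeR 4.0.16 in R 4.3.3: filterByExpr by group left 16017 genes, libraries were scaled by TMM, and 1 robust quasi-likelihood fit over all 9 libraries gave the contrasts of carmine and of carminic acid with control, two-sided, with Benjamini-Hochberg adjustment over all genes and a threshold of 0.05. Levels are TMM-scaled CPM, and log2 CPM values used a prior count of 2. The average biological coefficient of variation was 10.9%. Every pair of replicates differed by more than sampling noise (chi-square per degree of freedom of 9.51 or more). An exact permutation test of 3 against 3 libraries cannot go below p = 0.1, so none was used. DESeq2 1.42.0 and limma 3.58.1 served as alternatives, with other scalings, filters and libraries left out.

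The genes, lists, tests and alternatives were chosen with earlier results of these data known. Beside the 10 genes, the text names from each list of imprinted genes, upkeep factors, SERCA or IGF genes the 2 with the smallest p in each direction and comparison, the 3 tested genes nearest NNAT on each side, and the 5 genes most like NNAT; others are named as values. Of 134 list entries, 133 were in the files, 2 of them under a newer symbol. Gene positions are from RefSeq (GRCh38.p14); lengths and GC content are from GENCODE 29 and covered 96.5% of tested genes.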

Additional observations from a re-analysis of the deposited data

How the results depend on the processing

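The NNAT difference kept its sign under all 19 alternatives in each comparison. It ran from −1.34 to −1.02 with carmine and from −0.91 to −0.71 with carminic acid, both ranges being those of leaving out 1 library. Since NNAT was chosen for this difference in these same libraries, the kept sign is a description and no test. NNAT is given without a test under these alternatives too. Of the remaining tested members and the genes of the other lists, none passed the threshold under any of the 19. With group means removed, the log2 CPM of same-lettered libraries correlated at −0.149 to 0.0952. With 3 libraries per group this cannot settle whether a letter marks a shared culture or day, which the labels do not say. A fit with the letter as a replicate block gave −1.17 and −0.80 for NNAT and 0 genes past the threshold in each comparison. The count of genes past the threshold, 0 in each comparison, was less steady. With carmine it was 7 with RLE size factors, 7 with library size alone, 19 without the count filter, 81 with DESeq2, 124 with the length and GC trends removed, 12 with only the 6 libraries compared, and 0 to 36 with 1 library left out, the highest without carmine C. With carminic acid it was 2 without the filter, 6 with DESeq2, 2 with the trends removed, 49 with only the 6 libraries, and 0 to 21 with 1 library left out, again highest without carmine C. The cause was not tested. Values near 0 changed sign: IGF2 with carminic acid was −0.00377 with library size alone, −0.0728 with the trends removed and −0.0437 to 0.109 with 1 library left out, and BLCAP with carmine was −0.00124 to 0.0942 with 1 library left out. CDKN1C had no value under a minimum of 1 CPM in 3 libraries. Counts of 0 to 11 per library limit what can be said of H19, PEG3 and SNRPN.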
